A study of Homo sapiens with 2 samples.

Results

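The 58 genes described here are interferon-stimulated genes, the receptors, kinases and transcription factors that induce them, and the cytosolic sensors that act upstream. They were chosen by name from a list of 59 symbols, in which TMEM173 and STING1 stand for the same gene, and all 58 were among the 60671 genes of the deposited table. Of these, 36 are effectors, the products of the response, and 22 are JAK-STAT and sensor genes. The RNA came from C4-2B cells, an established human CRPC line, which were either given vehicle or kept overnight in 1 µM (R)-9b, a small-molecule inhibitor of the tyrosine kinase ACK1. Poly-A RNA of each condition was sequenced as 1 library, both from the same line, with no genetic change named in the labels. The spread between cultures was therefore not measured, no p-value was computed, and every difference below is one between 2 libraries, in which fewer cells expressing a gene and less RNA per cell cannot be told apart.

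Type I interferons bind a receptor made of IFNAR1 and IFNAR2, whose associated kinases TYK2 and JAK1 phosphorylate STAT2. It joins IRF9 in a complex that binds the interferon-stimulated response element in the promoters of effector genes. Type II interferon acts through IFNGR1 and IFNGR2, JAK1 and JAK2, and leads to binding at a different element called GAS. The RNA sensors DDX58 (RIG-I) and IFIH1 (MDA5) and the DNA sensor CGAS with its adaptor STING1 start the production of interferon through IRF3 and IRF7. LNCaP, the prostate cancer line from which C4-2B was derived, is known for low JAK1 and a weak interferon response.

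The vehicle library held 65207444 gene counts and the (R)-9b library 57653965. Counts were scaled with the TMM method, and a ratio is (R)-9b over vehicle with an exact (Clopper-Pearson) 95% interval that covers counting error only. A gene is said to rise or fall where the whole interval of its log2 ratio lay above or below 0. The comparison took in the 23446 genes that reached 10 counts when both libraries were summed, and their median log2 ratio was -0.0049. Mitochondrially encoded genes took 1.49% of the counts in vehicle and 9.54% in (R)-9b, and the part of this shift in the ratios was not tested beyond a scaling without those genes, which left every call on the 55 compared members as it was. The prostate luminal markers were abundant in both libraries, with KLK3 at 146597 and 297728 counts. The sample labels name breast cancer as the cell type, and of the 6 breast markers ESR1 had 2 counts in each library, PGR 10 and 2, GATA3 38 and 30, and SCGB2A2 and ANKRD30A none, while ERBB2, which is not particular to breast, had 10027 and 11623. The 12 immune markers summed to 146 counts in vehicle and 115 in (R)-9b, with PTPRC, CD3D, MS4A1 and TYROBP among those at 0 in both. Most of these counts came from CD8A (110 and 61), followed by LYZ (17 and 31). The 8 stromal and endothelial markers summed to 1930 and 2496 counts, mostly from COL1A1 and VWF, with COL1A2 and DCN at 3 counts or fewer.

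Of the 58 members, 55 had enough counts to be compared. CGAS was listed at 2 counts in vehicle and 0 in (R)-9b, XAF1 at 1 and 0, and OAS2 at 2 and 6, so the sensor of cytosolic DNA was at the floor of detection (3 counts in a library) in both conditions. Among the 55 members, 29 rose, against 29.8% of all compared genes, and 12 fell, against 31.1% of all compared genes. The other 14 intervals included 0. The median log2 ratio of the members was 0.28. A whole interval beyond 2-fold was rarer. Above 2-fold were IRF9, IFIT3, IFI44, GBP2, GBP3 and SAMD9, 6 members against 4.20% of all compared genes, and below it was SOCS1 alone, 1 member against 3.44%. Most low counts were even numbers, so each pair may have been counted once per mate. With counts halved, the intervals of IFIT3, IFI44, GBP2 and SAMD9 started below 2-fold (from 0.84, 0.99, 0.92 and 0.94 on the log2 scale), which left 3 members beyond it. The IRF9 value rests on the gene table and differs in the transcript table, as described below.

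**Figure D1:**
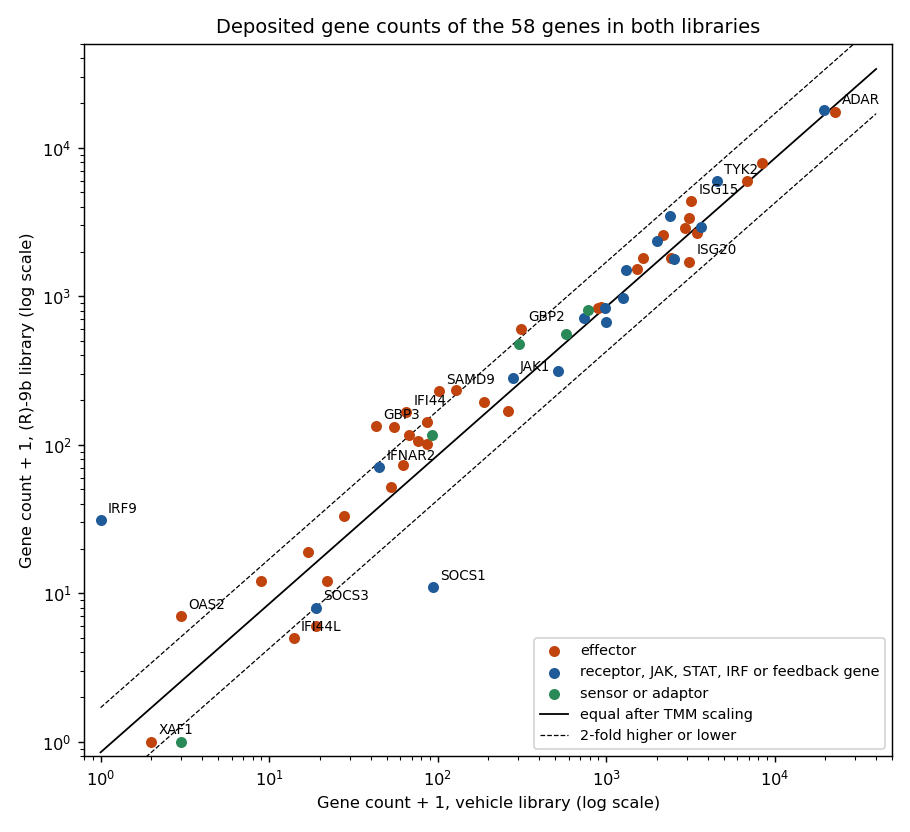
Deposited gene counts plus 1 of the 58 members, with the vehicle library on the horizontal axis and the (R)-9b library on the vertical axis, both on log scales. The solid line marks equal level after TMM scaling and the dashed lines a 2-fold difference. IRF9 (0 and 30 counts) and SOCS1 (93 and 10 counts) stand farthest from it, and the effectors above the upper line had fewer than 1000 counts.

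The members spanned a wide range of abundance. As CPM per kilobase of exon, the highest levels in vehicle were those of IFITM3 (76.4) and ISG15 (51.2), followed by ADAR (35.4), STAT3 (33.6), IFITM2 (28.6) and IFI6 (26.5). In (R)-9b ISG15 (82.2) stood above IFITM3 (78.1) on the same scale. These are genes whose proteins act at membranes (IFITM2, IFITM3), modify other proteins (ISG15) or edit RNA (ADAR). At the other end, SAMD9L, MX2, IFI44L and OAS2 were each under 0.03 CPM per kilobase in both libraries. The classical antiviral effectors IFIT1, MX1, OAS1 and RSAD2 were between 0.0652 and 0.45 CPM per kilobase in vehicle. Levels of neighbouring genes in this order often differed by little, and the exon length used for scaling counts every annotated isoform.

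**Figure D2:**
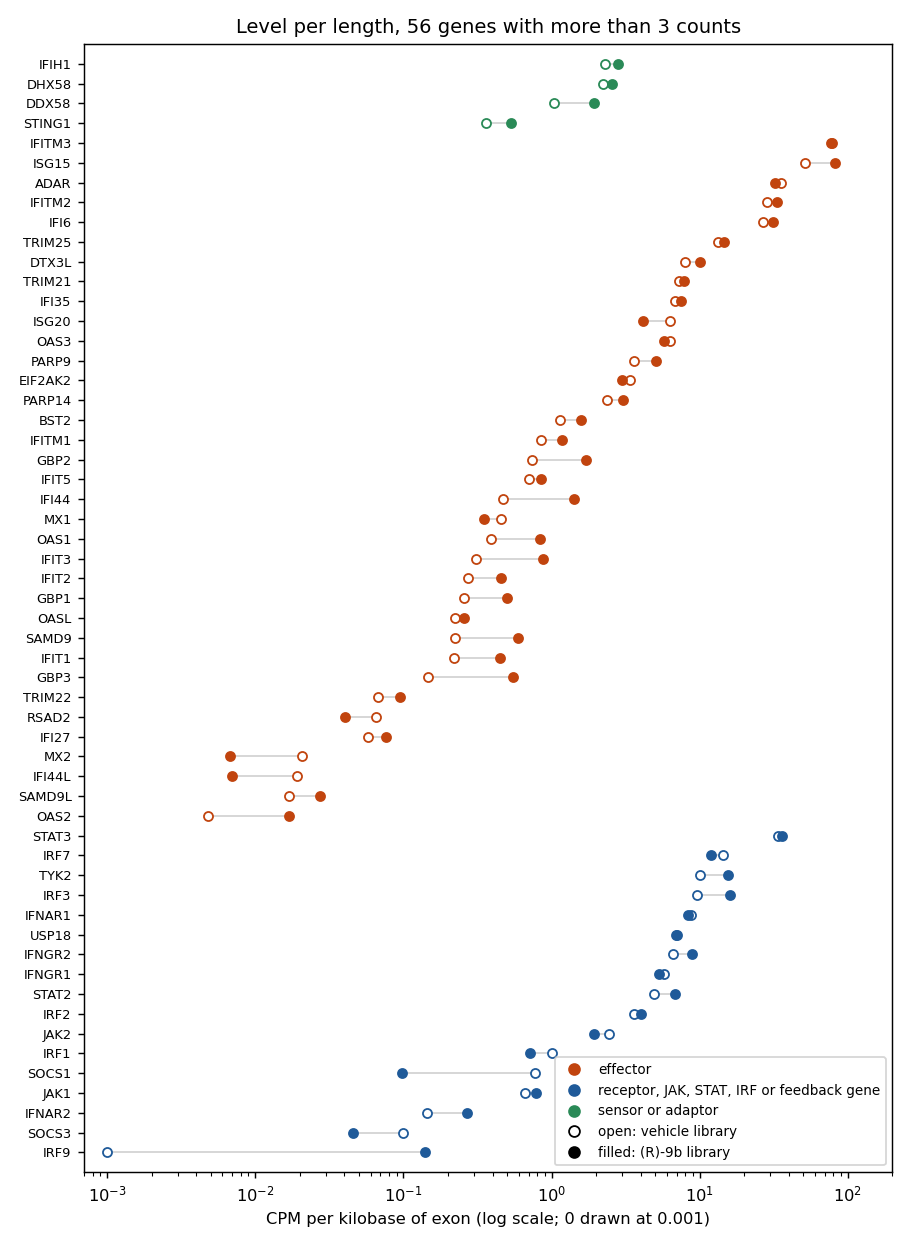
Level of 56 members with more than 3 counts, as CPM per kilobase of exon on a log scale, with open points for vehicle and filled points for (R)-9b. The effectors run from under 0.03 (OAS2, SAMD9L, IFI44L, MX2) to above 50 (ISG15, IFITM3), and the longest lines among effectors above 0.1 belong to GBP3, IFI44, IFIT3 and SAMD9.

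Promoters of effectors often carry the response element. Some promoters that could be printed are shown, picked because their genes moved much or are well known targets. Promoter windows of RefSeq (GRCh38.p14), from 250 bases before to 50 bases after the start, were matched for 43 of the 58 members. The core searched was GAAA, any 2 bases, GAAA on both strands, and it is in capitals below. Overlapping matches were kept. Only bases before the start and outside every GENCODE exon are printed, each 5′ to 3′ on the strand of its gene.
IFIT1, chr10:89392487-89392545, plus strand: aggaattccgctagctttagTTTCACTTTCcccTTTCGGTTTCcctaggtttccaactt
IFIT3, chr10:89327821-89327893, plus strand: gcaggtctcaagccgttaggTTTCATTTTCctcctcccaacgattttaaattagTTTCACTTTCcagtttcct
IFI44, chr1:78649751-78649788, plus strand: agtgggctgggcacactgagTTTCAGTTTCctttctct
ISG15, chr1:1013364-1013419, plus strand: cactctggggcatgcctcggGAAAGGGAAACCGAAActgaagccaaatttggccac
SAMD9, chr7:93118086-93118135, minus strand: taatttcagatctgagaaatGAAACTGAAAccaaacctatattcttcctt
SOCS1, chr16:11256288-11256337, minus strand: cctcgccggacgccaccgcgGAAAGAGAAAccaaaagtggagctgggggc

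The core was present in 23 of the 43 matched members (53.5%), against 1255 of 35116 promoter windows in the table (3.57%). It was in 21 of 29 matched effectors and in 2 of 14 matched JAK-STAT and sensor genes, namely SOCS1 and IFIH1. Its presence was spread over genes of either direction, with 12 of 21 matched members that rose, 5 of 10 that fell and 6 of 11 whose interval included 0. The median log2 ratio was 0.35 over the 23 members with the core and 0.13 over the 19 compared members without it. ADAR is among those without it, but its window lies at the start of the 931-residue transcript ADAR-201. The start of its 1226-residue transcript ADAR-202 (chr1:154608186) lies outside that window and was not searched. The GAS word (TTC, any 3 bases, GAA) was in 9 of 43 members (20.9%), against 7.66% of all windows. A match is a stretch of letters in this window and not a measured site.

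The receptor chains and kinases moved in both directions and by less than 2-fold. The type I receptor chain IFNAR1 (chr21:33324477-33359862) had 3674 counts in vehicle and 2947 in (R)-9b, a fall by 0.08 on the log2 scale (95% interval -0.15 to -0.01). The partner chain IFNAR2 had 44 and 70 counts, a rise of 0.91 (0.34 to 1.49), but 83.2% of its exon bases also lie in exons of other annotated genes, among them the readthrough gene AP000295.1, and reads that fit more than 1 gene are not counted. For the type II receptor, IFNGR1 fell from 1259 to 978 counts (log2 ratio -0.13) and IFNGR2 rose from 1310 to 1491 (0.42). TYK2, the kinase bound to IFNAR1, rose from 4560 to 5952 counts (0.62, interval 0.57 to 0.68). The falls of IFNAR1 and IFNGR1 were lost with halved counts, whose intervals reached 0.02 and 0.05, and with estimated transcript counts, as was the rise of IFNGR2 with the latter. JAK2 fell from 1000 to 671 counts (-0.34, interval -0.48 to -0.20). JAK1, shared by both receptors, had 278 and 279 counts, and its log2 ratio of 0.24 had an interval that included 0. Per length, JAK1 was the lowest of the kinases in both libraries, at 0.66 CPM per kilobase in vehicle and 0.78 in (R)-9b, beside 2.43 and 1.93 for JAK2 and 10.1 and 15.6 for TYK2.

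Of the STAT and IRF transcription factors, STAT2, STAT3, IRF2, IRF3 and IRF9 rose and IRF1 and IRF7 fell. STAT2, the STAT of the type I complex, went from 1992 to 2351 counts (log2 ratio 0.48, interval 0.39 to 0.56). STAT3, which serves mainly cytokines of the IL-6 family, had 19702 and 17964 counts, a rise of 0.10 after scaling. IRF3, the factor activated by RNA and DNA sensors, rose from 2404 to 3456 counts (0.76, interval 0.69 to 0.84), and IRF2, an antagonist of IRF1, had 742 and 709 counts, which is a rise once scaled to the smaller (R)-9b library (0.17, interval 0.02 to 0.32). The IRF2 call was lost with halved counts (-0.04 to 0.39) and with estimated transcript counts (-0.12 to 0.40). IRF1, which is itself induced by interferon, fell from 519 to 315 counts (-0.48, interval -0.69 to -0.28). IRF7, the factor that amplifies type I interferon production, fell from 2530 to 1770 counts (-0.28, interval -0.37 to -0.19).

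IRF9, the DNA-binding partner of STAT2, was the member whose value depended most on the table used. The gene table listed 0 counts in vehicle and 30 in (R)-9b, which put the lower end of its interval at a log2 ratio of 3.17, or at 2.08 with counts halved. In the transcript table, which shares out reads that fit several transcripts, IRF9 had 37.3 estimated counts in vehicle and 35.5 in (R)-9b, a log2 ratio of 0.17 (interval -0.54 to 0.87). Of its exon bases, 48.4% also lie in exons of the readthrough gene AL136295.5 at the same locus (chr14:24161053-24166565). The rise seen in the gene table did not recur in the transcript table, and which of them is nearer to the RNA level was not tested.

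Both SOCS genes of the list, inhibitors that bind activated JAK kinases and cytokine receptors, had fewer counts in (R)-9b. SOCS1 had 93 counts in vehicle and 10 in (R)-9b, a log2 ratio of -2.98 (interval -4.09 to -2.04), and with estimated transcript counts it was -2.43 (-4.15 to -1.06). It was the member with the largest fall in both tables. SOCS3 had 18 and 7 counts (-1.12, interval -2.63 to 0.20), which did not pass. USP18, which removes ISG15 from proteins and blocks signalling at IFNAR2, had 977 and 839 counts (0.02, interval -0.12 to 0.15).

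All 4 compared sensor genes rose, against 29.8% of all compared genes. DDX58 had 301 counts in vehicle and 476 in (R)-9b (log2 ratio 0.90, interval 0.69 to 1.11). The other RNA helicases changed less, with IFIH1 at 781 and 809 counts (0.29, interval 0.14 to 0.43) and DHX58 (LGP2), which has no signalling domain of its own, at 573 and 556 counts (0.19, interval 0.02 to 0.37). STING1, the adaptor of the cytosolic DNA pathway, had 92 and 115 counts (0.56, interval 0.15 to 0.97). The intervals of DHX58 and STING1 included 0 with halved counts (from -0.05 and from -0.02) and with estimated transcript counts.

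**Figure D3:**
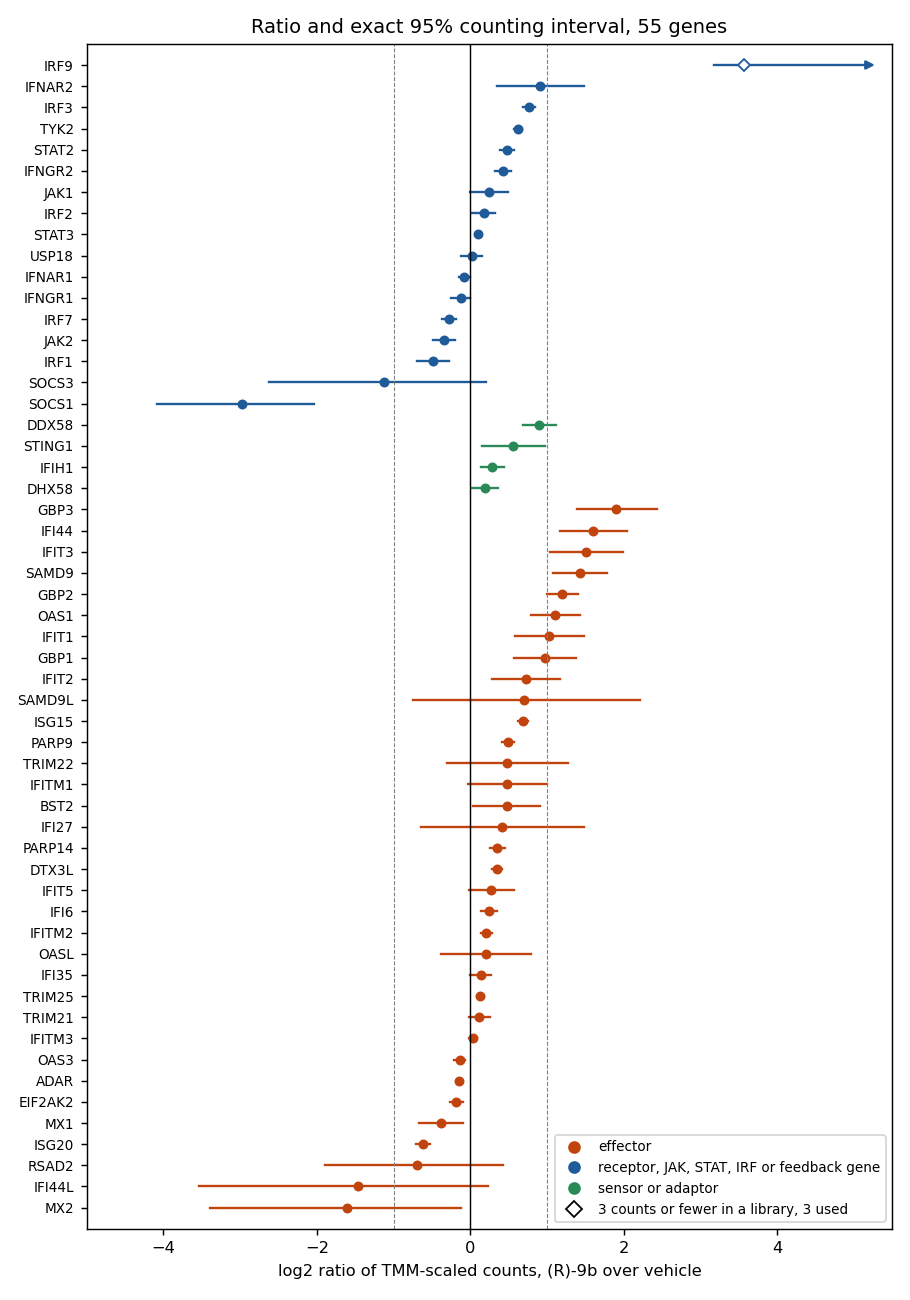
Log2 ratio of TMM-scaled counts, (R)-9b over vehicle, of the 55 compared members, with points for the ratio, lines for the exact 95% counting interval and dashed lines at 2-fold and members grouped by class. All 4 sensor genes lie above 0, the receptor, kinase, STAT, IRF and feedback genes lie on both sides, and the effectors run from MX2 (-1.61) to GBP3 (1.90).

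Among the effectors, 34 of 36 were compared, of which 17 rose, 6 fell (17.6%) and 11 had an interval that included 0. Their median log2 ratio was 0.35, with medians of 0.02 for the lower and 0.57 for the upper interval ends. Of the 21 compared JAK-STAT and sensor genes, 12 rose (57.1%, against 29.8%), 6 fell (28.6%, near the 31.1% of all compared genes) and 3 included 0. Their median was 0.19, with medians of 0.02 and 0.34 for the interval ends. The ranges set by these interval ends overlap, and the difference between the classes was not tested. Within the effectors the share that rose was the same in genes of low and high abundance, while the medians differed. The 20 effectors with fewer than 1000 counts over both libraries had a median log2 ratio of 0.59, with 10 risen and 2 fallen, whereas all 13206 compared genes of that abundance had a median of 0.05, with 23.7% risen and 20.5% fallen. The 14 effectors with 1000 counts or more had a median of 0.13, with 7 risen and 4 fallen, against a median of -0.03 with 37.5% risen and 44.8% fallen for the 10240 compared genes of that abundance. All 5 effectors above 2-fold were in the first group, as were 771 of the 985 compared genes above 2-fold.

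The IFIT genes encode proteins that bind foreign RNA ends and lie together on chromosome 10. They rose in 3 of 4 cases, against 29.8% of all compared genes. IFIT3 (chr10:89327894-89340971) rose from 54 to 130 counts (log2 ratio 1.51, interval 1.04 to 1.99). IFIT1 rose from 67 to 116 (1.03, interval 0.58 to 1.49) and IFIT2 from 75 to 105 (0.72, interval 0.28 to 1.17). IFIT5 had 187 and 192 counts (0.28, interval -0.02 to 0.57). The response element core occurred 2 times each in the promoters of IFIT1 and IFIT3 printed above. It occurred 3 times in the window of IFIT5, whose interval included 0, and no window was matched for IFIT2.

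A second run of neighbours, the guanylate-binding GTPases GBP1, GBP2 and GBP3 on chromosome 1, also rose. These proteins act on vacuoles and membranes of intracellular pathogens and respond strongly to type II interferon. GBP3 (chr1:89006666-89022894) had 42 and 133 counts, the largest rise of an effector (log2 ratio 1.90, interval 1.39 to 2.44). GBP2 (chr1:89106132-89150456) had 310 and 604 counts (1.20, interval 1.00 to 1.4), and GBP1 85 and 141 (0.97, interval 0.57 to 1.37). The Mx GTPases on chromosome 21, which block viral nucleocapsids, went the other way. MX1 fell from 260 to 169 counts (-0.38, interval -0.67 to -0.10) and MX2 from 18 to 5 (-1.61, interval -3.39 to -0.13), although neither interval excluded 0 once the counts were halved. RSAD2 (viperin) had 21 and 11 counts (-0.70, interval -1.89 to 0.42). GBP, IFIT and IFITM genes have close relatives, so reads that match several of them alike would not be counted for any.

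Of the IFI and ISG genes, IFI44, IFI6 and ISG15 rose and ISG20 fell. IFI44 (chr1:78649796-78664078) had 64 counts in vehicle and 164 in (R)-9b (log2 ratio 1.60, interval 1.17 to 2.04), while its neighbour IFI44L (chr1:78619922-78646145) had 13 and 4 (-1.46, interval -3.54 to 0.23). IFI6, a mitochondrial and endoplasmic reticulum protein, had 1529 and 1530 counts (0.24, interval 0.14 to 0.34). The exonuclease ISG20 fell from 3098 to 1713 counts (-0.62, interval -0.70 to -0.53), the largest fall of an effector with more than 100 counts. IFI27 had 16 and 18 counts and IFI35 898 and 835, and their intervals included 0.

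ISG15, a ubiquitin-like modifier, rose from 3205 to 4370 counts (log2 ratio 0.69, interval 0.62 to 0.75). The enzymes that attach it did not move as a unit. UBA7, its activating enzyme, had 119 and 347 counts (1.78, interval 1.48 to 2.09), one of the 3 largest rises among the pathway genes outside the member list, while HERC5, its main ligase, fell from 919 to 138 counts (-2.50, interval -2.77 to -2.24), the largest fall there. UBE2L6, its conjugating enzyme, was added after its value had been seen and had 136 and 223 counts (0.95, interval 0.64 to 1.27). The deconjugase USP18 is given above.

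Of the effector groups, the double-stranded RNA genes were the one in which falls (3 of 5 compared) outnumbered rises (1). Of all compared genes, 31.1% fell and 29.8% rose. The 3 that fell each had 1000 counts or more over both libraries, and 44.8% of all compared genes of that abundance fell. OAS1, a synthetase that activates RNase L, rose from 128 to 233 counts (log2 ratio 1.10, interval 0.78 to 1.42), while the adjacent OAS3 on chromosome 12 fell from 3445 to 2656 (-0.14, interval -0.21 to -0.06). EIF2AK2 (PKR), a kinase that stops translation, fell from 2427 to 1814 counts (-0.18, interval -0.27 to -0.09). ADAR, the enzyme that edits adenosine in double-stranded RNA, fell from 22834 to 17515 counts (-0.14, interval -0.17 to -0.12). OASL had 52 and 51 counts (0.21, interval -0.38 to 0.80). The 3 falls were each under 0.2 on the log2 scale, and their narrow intervals reflect high counts and not replicate spread.

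None of the 4 membrane effectors fell, against 31.1% of all compared genes, and 2 rose, against 29.8%. IFITM2 had 2937 and 2881 counts (log2 ratio 0.21, interval 0.14 to 0.28) and BST2 (tetherin), which holds budding virions at the surface, 85 and 100 (0.47, interval 0.04 to 0.91). IFITM3 had 6859 and 5944 counts, and its ratio of 0.03 had an interval of -0.02 to 0.08. IFITM1 had 61 and 72 counts (0.48, interval -0.04 to 0.99). The rise of BST2 was lost with halved counts (from -0.15) and did not recur in the transcript table (-0.06, interval -0.82 to 0.68).

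The PARP9 complex rose together. PARP9 and DTX3L, which form an ADP-ribosylating ubiquitin ligase and are transcribed from neighbouring starts on chromosome 3, had 2159 and 2571 counts (log2 ratio 0.49, interval 0.41 to 0.57) and 3107 and 3352 counts (0.35, interval 0.28 to 0.42). PARP14 had 1665 and 1803 counts (0.35, interval 0.26 to 0.45). SAMD9, an antiviral protein that restricts poxviruses, had 101 and 230 counts (1.43, interval 1.08 to 1.78), whereas its neighbour SAMD9L on chromosome 7 had 8 and 11 (0.70, interval -0.75 to 2.22). The ubiquitin ligase TRIM25, which acts on RIG-I, had 8433 and 7836 counts, a rise after scaling (0.13, interval 0.09 to 0.18). TRIM21 had 926 and 850 counts and TRIM22 27 and 32, and their intervals included 0.

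The transcript table gave a second reading of each gene. Summed over transcripts, its estimated counts came to 33.5% of the gene counts in vehicle and 33.3% in (R)-9b, and over the 55 compared members the median was 36.6%, with 45 members between 25% and 50%. Of the remainder, 6 were under 25% (IFNGR2, STAT3, IRF7, IFI6, OAS1 and OAS3), and each of these had at least 1 GENCODE 29 transcript not in the table used here, against 10 of the 45. IFNAR2, IRF1, IRF9 and IFITM1 were over 50%. Of their exon bases, 83.2%, 22.0%, 48.4% and 32.5% lay in exons of other genes. These 4 were thus above 20%, against 2 of the 45, but this contrast depends on the cut, with IRF3 just below it at 19.3%. Whether overlap accounts for the difference between the tables was not tested. IRF7 changed direction between the tables, with 5.47 and 26 estimated counts (log2 ratio 2.63, interval 1.22 to 4.36) in place of 2530 and 1770 gene counts, and the table held 0.732% of its gene counts. For OAS3 it held 0.901%.

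**Figure D4:**
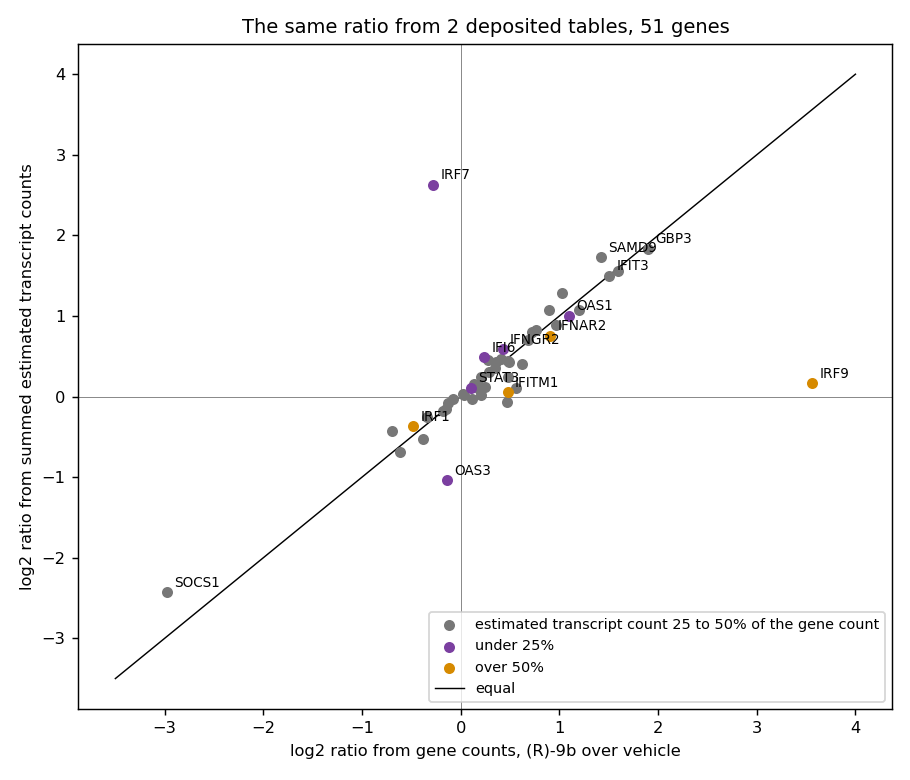
Log2 ratio, (R)-9b over vehicle, of 51 members from gene counts (horizontal axis) and from summed estimated transcript counts (vertical axis), coloured by the size of the estimated transcript count relative to the gene count. IRF9 (3.56 with 3 counts put in place of 0, against 0.17) and IRF7 (-0.28 against 2.63) lie farthest from the line of equality.

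The estimated transcript counts also separated isoforms, and 22 members had at least 2 protein-coding transcripts with 20 or more estimated counts. ADAR is made as a long p150 protein from an interferon-inducible promoter and as a shorter p110 protein from a constitutive promoter. Transcripts of p150 length (1158 to 1226 residues) summed to 4734 estimated counts in vehicle and 2764 in (R)-9b, a log2 ratio of -0.53 (interval -0.60 to -0.46), and their share of the ADAR coding estimates went from 57.6% to 44.9%. Transcripts of p110 length (931 residues) summed to 3482 and 3392 estimated counts (0.21, interval 0.14 to 0.28). Summed this way the long class fell and the short class rose, although single transcripts of the short class moved both ways (ADAR-201 by 0.46 and ADAR-218 by -0.26). For IFNAR2, the 515-residue transcript that encodes the signalling chain had 49.4 and 147.7 estimated counts (1.84, interval 1.37 to 2.34), while both 331-residue transcripts together had 158.7 and 156.7 (0.23, interval -0.10 to 0.56). For IRF3, the 427-residue transcripts had 245.5 and 507.2 estimated counts (1.29, interval 1.07 to 1.52) and the other compared transcripts 363.0 and 218.3 (-0.49, interval -0.74 to -0.24). Isoforms share most of their sequence, so these estimates are not independent counts, and the intervals leave out the error of the assignment. The isoforms named were chosen after their values had been seen.

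**Figure D5:**
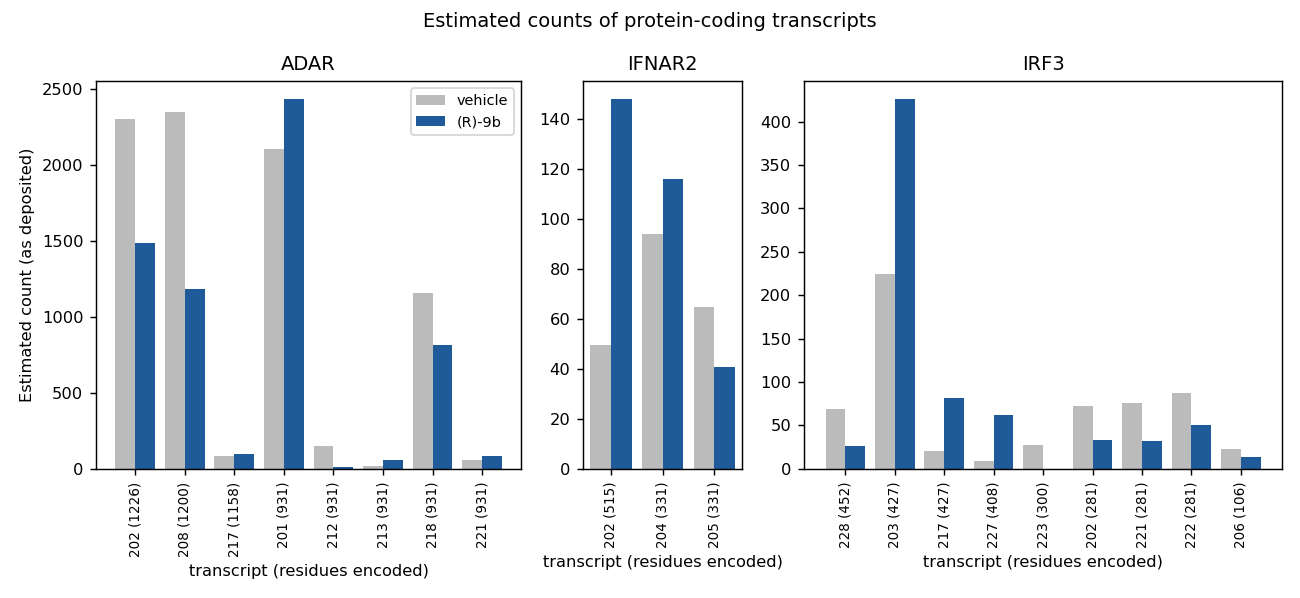
Estimated counts, as deposited and not scaled for library size, of the compared protein-coding transcripts of ADAR, IFNAR2 and IRF3, with grey bars for vehicle and blue bars for (R)-9b, and the residues each encodes in brackets. The tallest long ADAR transcripts are lower in (R)-9b, and the 515-residue IFNAR2 and 427-residue IRF3 transcripts are higher.

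Interferon genes themselves were near the floor. Of 22 interferon ligands looked up, only IFNL2 (7 and 4 counts) and IFNL3 (28 and 29) reached 10 counts over both libraries, and the interval of neither excluded 0. Both IFNL2 and IFNL3 had 0 estimated transcript counts in each library. IFNB1 was listed at 5 counts in vehicle and 0 in (R)-9b. Of 25 compared further genes of receptor, sensing and signalling function, 8 rose (32.0%, near the 29.8% of all compared genes) and 12 fell (48.0%, against 31.1%), with a median log2 ratio of -0.11. Of 45 compared further interferon-induced genes, 27 rose (60.0%, against 29.8% of all compared genes) and 8 fell (17.8%, against 31.1%), with a median of 0.40. That list was chosen with earlier results of these data known, and UBE2L6 was added to it after its value had been seen. Its shares therefore describe the list and are no independent check on the members. The largest rises there were those of the chemokines CXCL10 (16 and 198 counts, 3.87) and CXCL11 (0 and 14 counts), followed by UBA7. For CXCL11 the lower end of the interval was 3.91-fold with the counts as listed, and this end is lower with counts halved. TMEM140 (2521 and 1377 counts, -0.63) had one of the 3 largest falls.

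A narrow interval of an abundant gene says nothing about culture-to-culture variation. With a coefficient of variation of 0.1 added to each library, 18 members rose, against 17.4% of all compared genes, and 4 fell, against 16.3%. With counts halved, 25 members rose, against 23.9% of all compared genes, and 8 fell, against 25.4%.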

How the data were processed

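Gene counts were deposited by the authors as raw numbers of uniquely aligned paired-end poly-A reads (STAR, GRCh38). The sample labels name STAR 2.5.1a, featureCounts 1.4.6-p5 and Salmon 0.8.2, and the paper another STAR version. The authors also deposited these values as CPM and as moderated log2 CPM. Estimated counts of transcripts were deposited by the authors in a further table. These served as alternatives. Low counts were mostly even (72.2% and 70.3% of counts from 1 to 20), as when both mates of a pair are counted. The 200 repeated lines among 60871 were dropped.

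Counts were scaled with TMM (edgeR 4.0.16, R 4.3.3). Exact 95% intervals were computed with scipy 1.17.1 (Python 3.11.15, numpy 2.4.6, pandas 2.3.3) for genes with at least 10 counts and were tested on simulated data. The simulation drew each count independently, so it left out the excess of even counts and any spread between cultures. It therefore does not show how well the intervals cover in these data. Genes with 3 counts or fewer in a library got the interval end nearest 0, and 3 counts in medians and plots. Exon lengths, overlaps and isoform proteins came from GENCODE 29. Figures were drawn with matplotlib 3.10.9. Alternatives included DESeq2 1.42.0 size factors. Of pathway genes outside the member list, the text names the interferon ligands with at least 10 counts and the 3 largest rises and falls by the interval end nearest 0, of which some are not reported here. Members and lists were chosen with earlier results of these data known. PCR copies could not be told apart, so intervals cover counting error only.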

Additional observations from a re-analysis of the deposited data

Results flagged for a closer look

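Genes with 3 counts or fewer in the gene table but a signal in the transcript table were looked at again. IRF9 had 0 gene counts in vehicle and 37.3 estimated transcript counts there. TREX1, a DNA exonuclease that limits cytosolic DNA sensing, had 0 gene counts in both libraries but 871.4 estimated counts in vehicle and 881.1 in (R)-9b, and all of its exon bases also lie in exons of ATRIP. TRIM34 had 0 gene counts in both libraries and 8 and 39.0 estimated counts. IFI30, an interferon-induced thiol reductase, had 0 gene counts in vehicle and 11.9 estimated counts. The gene table thus listed these genes near 0 where the transcript table gave reads, and which value is nearer to the RNA level was not tested.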

How the results depend on the processing

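The medians of all members, of effectors and of JAK-STAT and sensor genes kept their sign under every alternative that gave a value, with all scalings, CPM, moderated log2 CPM, transcript counts and minimum counts of 1 and 50. The number of members that rose was 24 to 40 and of those that fell 8 to 15, except with a coefficient of variation of 0.1 added, which lowered them to 18 and 4 by construction. The upper ends, 40 and 15, came from calling every member by the sign of its ratio alone, without an interval. The number beyond 2-fold, 7, became 4 with that addition, 3 with halved counts (IRF9, GBP3 and SOCS1), 3 with estimated transcript counts and 12 by the ratio alone. Leaving out IFNAR2, IRF1, IRF9 and IFITM1, an alternative chosen after seeing the data, gave 27 that rose, 11 that fell and a median of 0.24. For single members, direction reversed with estimated transcript counts for IRF7 (2.63), BST2 (-0.0635), SAMD9L (-0.0735) and TRIM21 (-0.0325), the last 3 with an interval that included 0; with total counts, the deposited CPM and moderated log2 CPM for USP18 (-0.0421, -0.0421 and -0.0420) and IFITM3 (-0.0289 in each), and with DESeq2 size factors for USP18 (-0.00345). The cause was not tested. Besides these, 8 members no longer passed with transcript counts and 8 with halved counts. No paired analysis was possible because there was 1 library per condition, and no library could be left out.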

Other observations

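Some genes with a role in immunoproteasome and antigen presentation on the list of further interferon-induced genes were looked up after their values had been seen. PSMB9 had 36 and 115 counts (log2 ratio 1.91, interval 1.36 to 2.5) and TAP1 1795 and 2931 (0.95, interval 0.86 to 1.03). PSME2 had 2173 and 3108 (0.75, interval 0.67 to 0.83) and PSMB8 204 and 278 (0.68, interval 0.42 to 0.95). PSME1 had 4072 and 3998 counts and the peptidase LAP3 4848 and 3880, before scaling. PSMB9 and PSMB8 each had 0 estimated transcript counts in vehicle, and 3.7 and 104 in (R)-9b. NLRC5, the transactivator of class I antigen presentation genes, had 341 and 287 counts (-0.01, interval -0.24 to 0.22). Of the other SOCS-family genes, SOCS2 rose from 834 to 2049 counts (1.53, interval 1.42 to 1.65) and CISH from 142 to 322 (1.42, interval 1.13 to 1.71), opposite to SOCS1. IKBKE, a kinase that phosphorylates IRF3, rose from 362 to 935 counts (1.61, interval 1.43 to 1.79), while its relative TBK1 had 2746 and 2303 (-0.02, interval -0.10 to 0.06).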
